A study of Homo sapiens with 12 samples.

Results

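The cells described here were HEK293T cells that stably carried a scrambled short hairpin RNA (SCR), a hairpin designed to have no target, delivered by lentivirus and kept by puromycin selection. They formed 1 line, and nothing in the labels says that its 3 RNA samples came from separate transductions or cultures, so the spread between the arrays may be technical. Total RNA was amplified and biotin-labelled for Affymetrix Human Transcriptome Array 2.0 chips, and this account uses the gene-level log2 signals of the 3 SCR arrays, out of 12 deposited samples. The members were the transcript clusters (the array's gene-level features) that carry exactly 1 gene symbol: 23781 of 67528 clusters, which stand for 22411 genes, each taken from its brightest cluster. The question was which genes gave signal in this line, how gene families ranked, and how far the 3 arrays differed.

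HEK293T cells descend from a human embryonic kidney culture transformed with adenovirus DNA and later given the SV40 large T antigen, an oncoprotein that binds p53 and the retinoblastoma protein. They divide quickly and are known for a mixed identity, with intermediate filaments of neurons and of mesenchyme beside simple epithelial keratins. A whole cell population was measured, so fewer cells with a transcript and less of it in each cell cannot be told apart.

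The 22411 genes spanned 2.66 to 14.09 on the log2 scale, with a median of 7.70. The median was 8.02 for the 17154 protein-coding genes, 6.81 for 240 small nucleolar RNA genes, 6.32 for 1937 long non-coding RNA genes and 5.88 for 1041 microRNA genes. Array signal includes a background that depends on the probe's bases. The array's 23 classes of background probes rose from 2.76 at 3 G and C bases to 4.10 at 13, 7.49 at 19 and 12.06 at 25, the all-G-and-C probes. The order of genes given here is therefore an order of signals, each from its own probes, and not of molecules per cell. To read low signals, 2 reference levels were set. The lower bound, 6.83, is the 95th percentile of the 392 olfactory receptor genes, whose products belong to the nasal epithelium. The upper bound, 8.47, is the 95th percentile of 178 genes of 5 other families used elsewhere (taste receptors, keratin-associated proteins, beta defensins, late cornified envelope proteins and type I interferons). In all, 67.6% of genes lay above the lower bound and 31.6% above the upper one, and 8072 genes (36%) lay between them, where expression and background could not be told apart. Among protein-coding genes 75.7% passed the lower bound.

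The brightest protein-coding genes served the cytoskeleton and protein synthesis. ACTG1, cytoplasmic gamma actin, gave 13.48, 13.52 and 13.51 on arrays 1, 2 and 3. EEF2, the factor that moves the ribosome along the message, gave 13.24, 13.27 and 13.27. TUBA1B, an alpha tubulin, gave 13.23, 13.27 and 13.27. These genes varied by a few hundredths between arrays, far less than the distance to the median gene. The other genes at this level were the ribosomal proteins RPS15 (13.01), RPL26 (12.74), RPL19 (12.58), RPL8 and RPS16 (both 12.50), the tRNA carrier EEF1A1 (12.99), the poly(A)-binding protein PABPC1 (12.57), the beta tubulins TUBB (12.86) and TUBB4B (12.51), the histones H4C3 (12.66) and H2AC20 (12.61), the inducible chaperone HSPA1A (12.60) and the ornithine decarboxylase antizyme OAZ1 (12.56). SLC44A4, a choline transporter family member, came first by number at 13.61, but only through 1 of its 8 clusters, on an alternate haplotype of the major histocompatibility region. Its 7 other clusters gave 6.79 to 6.84 and its exon probe sets averaged 7.05, so it is not counted among the bright genes. The exon probe sets also lowered some single genes, with RPS15 at 9.95 and H4C3 at 8.98, while ACTG1 stayed at 13.04 and EEF2 at 13.18.

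Messages of the translation apparatus in mammals typically begin with a C followed by a run of pyrimidines, the terminal oligopyrimidine tract, through which the cell tunes their translation to nutrient supply. The starts of 6 such genes are shown because ribosomal protein genes carried this feature more often than protein-coding genes at large. Each line gives 20 bases before and 20 after the RefSeq transcription start (GRCh38.p14), with the pyrimidine tract from the first transcribed base in capitals.
RPL26, chr17:8383174-8383213, minus strand: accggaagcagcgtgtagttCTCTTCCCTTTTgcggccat
RPS16, chr19:39435930-39435969, minus strand: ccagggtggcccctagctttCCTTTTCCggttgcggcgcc
RPS19, chr19:41860235-41860274, plus strand: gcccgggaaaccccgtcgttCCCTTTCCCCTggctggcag
RPL35, chr9:124861938-124861977, minus strand: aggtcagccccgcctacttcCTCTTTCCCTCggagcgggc
EEF2, chr19:3985444-3985483, minus strand: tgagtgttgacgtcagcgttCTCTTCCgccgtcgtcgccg
EEF1A1, chr6:73521013-73521052, minus strand: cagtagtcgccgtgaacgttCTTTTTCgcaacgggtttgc
A C at position 1 with 4 pyrimidines after it was found in 33 of 48 ribosomal protein genes with a RefSeq promoter (68.8%) and in 8 of 25 translation factors (32.0%), against 4.54% of 13936 protein-coding genes. The annotated starts of RPS15 and RPL19 did not begin this way, although both genes were among the 20 brightest.

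Ranked by median, most lists at the top of the 93 measured were families of basic cell machinery. The hnRNPs, which coat nascent transcripts, came first with a median of 11.07, higher than 98.5% of all genes. All 17 hnRNPs lay above the upper bound, against 31.6% of all genes. Their brightest members were HNRNPM (12.21), HNRNPA2B1 (11.87) and HNRNPU (11.68), and the dimmest was PCBP1 at 9.73. The chaperonin CCT with its partner prefoldin, which folds actin and tubulin, had a median of 10.49, led by CCT3 at 11.59. Translation factors had a median of 10.45 with all 33 members above the upper bound, and SR splicing proteins one of 10.34, from SRSF1 at 11.91 to SRSF12 at 8.48. The cytosolic tRNA synthetases followed at 10.24. For the 55 cytosolic ribosomal proteins the median was 10.03, and RPL10L, a retrogene used in the testis, lay far below the rest at 4.28.

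**Figure D1:**
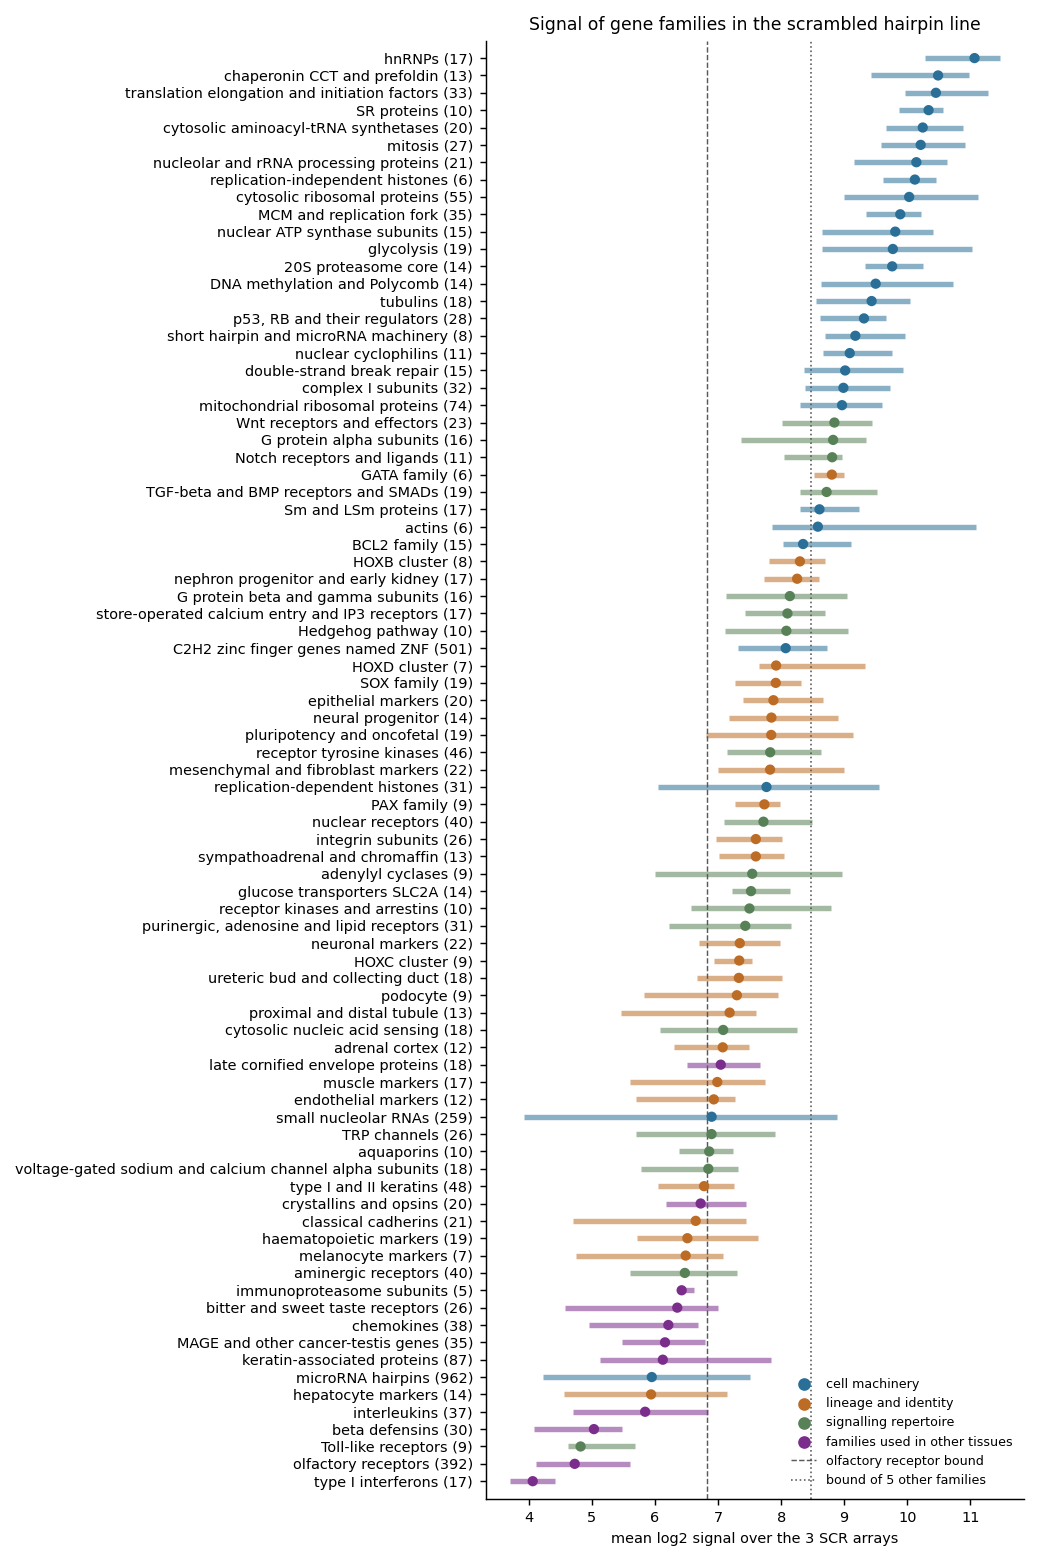
Median (point) and middle range from the 25th to the 75th percentile (bar) of the mean log2 signal over the 3 SCR arrays, for the families with at least 5 genes measured (number in brackets), coloured by class. Lists drawn up to describe replicate spread, such as the amino acid response, ATF4 target synthetase and immediate early lists, are left out. The dashed line is the olfactory receptor bound at 6.83 and the dotted line the bound of 5 other families at 8.47. Most lists at the top are cell machinery, from the hnRNPs at 11.07, and the lowest is that of the type I interferons at 4.06, with the Toll-like receptors, hepatocyte markers and microRNA hairpins also near the bottom.

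Genes of cell division were as bright as those of translation. The mitosis list had a median of 10.21, and 26 of its 27 genes (96.3%) passed the upper bound, against 31.6% of all genes. It was led by the proliferation antigen MKI67 (11.65, 11.85 and 11.91), topoisomerase TOP2A (11.44, 11.61 and 11.65) and the kinase PLK1 (11.57, 11.56 and 11.49). For MKI67 and TOP2A array 1 was the lowest, whereas PLK1 was lowest on array 3. The replication fork list had a median of 9.89 with thymidylate synthase TYMS at 11.06 and the helicase subunit MCM3 at 11.04. In it 33 of 35 genes (94.3%) passed the upper bound. Nucleolar and rRNA processing proteins had a median of 10.14, with nucleolin (NCL) at 11.53. The maintenance methyltransferase DNMT1 gave 11.24 and the Polycomb partner RBBP4 gave 11.31. The replication-dependent histones had the widest range of the machinery lists apart from the small RNAs, from 12.66 for H4C3 to 3.45 for the testis gene H2BC1. Of these histones 18 of 31 (58.1%) lay above the lower bound, against 67.6% of all genes. Their messages lack a poly(A) tail, and several are near-identical copies whose signals cannot be assigned to 1 gene with certainty.

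Energy metabolism lay slightly lower. Glycolysis had a median of 9.77, with GAPDH at 12.45, ENO1 at 11.67 and GPI at 11.40, and its liver and muscle forms at the end, PKLR at 7.32 and ENO3 at 7.57. Nuclear ATP synthase subunits had a median of 9.81, led by ATP5F1B at 12.04, and complex I subunits one of 8.99. The 14 subunits of the proteasome core had a median of 9.76 and all passed the lower bound, against 67.6% of all genes. The subunits that replace them in immune cells or in the germ line had a median of 6.42, with 1 of 5 above that bound (PSMB10, 7.68).

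A list of cyclophilins, peptidyl-prolyl isomerases of which many act in splicing, had a median of 9.09 over 11 genes. PPIL2, also on the list, had no cluster that carries its symbol alone. RANBP2 and PPIL4, which the study counts as cytoplasmic, headed the list. RANBP2, the nuclear pore protein with a cyclophilin domain, gave 11.14, 11.22 and 11.25, and PPIL4 gave 10.52. Of the others PPIL1 (9.86) and PPIG (9.66) were brightest. PPWD1 (9.15), CWC27 (9.09) and NKTR (9.05) lay too close together for their order to be read. PPIH gave 8.74 and PPIE 8.59. PPIL3, a component of the spliceosome, gave 7.75, 7.81 and 7.81, between the bounds and near the median gene. PPIL6 was lowest at 6.42, below both bounds. The machinery that makes and uses short hairpins had a median of 9.18 over 8 genes. Of these, 6 (75%) passed the upper bound, against 31.6% of all genes. DICER1 (10.34), the exporter XPO5 (10.10) and DROSHA (9.91) were its brightest members, and PRKRA was lowest at 7.85, between the bounds.

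Of the markers fixed for HEK293T cells, 8 of 8 passed the lower bound and 5 the upper one, against 67.6% and 31.6% of all genes. Vimentin (VIM), the intermediate filament of mesenchyme, gave 10.89, 10.95 and 11.01, and alpha-internexin (INA), a neuronal filament, gave 10.68, 10.68 and 10.65. Neural cadherin CDH2 gave 10.06, 10.15 and 10.18, whereas epithelial cadherin CDH1 gave 7.38, 7.34 and 7.26, in the zone where background was not separable. The simple epithelial keratins KRT18 (8.99, 8.91 and 8.93) and KRT8 (8.63, 8.54 and 8.52) were just above the upper bound. The neurofilament NEFM (8.14), the nephric duct factor LHX1 (8.33) and the kidney factor PAX2 (7.73) lay between the bounds.

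Markers of other cell types were lower but not all below the bounds. None of the 33 measured markers of haematopoietic, endothelial, liver, muscle, melanocyte, fibroblast, tubule, podocyte, adrenal cortex and chromaffin cells passed the upper bound. Of all genes, 31.6% did. Podocytes were represented by 1 measured marker, NPHS1. The longer lists for some of these cell types did hold genes above the upper bound. Among them were ACTA1 of muscle (9.14), the haematopoietic KIT (8.78), GATA3 of the sympathoadrenal list (8.76) and CPS1 of liver (8.60). The endothelial, melanocyte, tubule and adrenal cortex lists held none. The lower bound was passed by 17 of the 33, a smaller share than the 67.6% of all genes. Among these 17 were all 3 markers of muscle and all 4 of chromaffin cells. PTPRC (CD45), the surface phosphatase of white blood cells, gave 4.18 on every array, PECAM1 of endothelium gave 5.04, 5.17 and 4.87, and albumin (ALB) gave 4.48, 4.48 and 4.48. The muscle filament DES gave 7.03, 7.01 and 6.92. The brightest of the 33 markers was the collagen chain COL1A1 at 8.20, while the fibroblast proteoglycans DCN and LUM gave 4.17 and 4.33. PTPRC and ALB lay at percentiles 4.81 and 7.06 of all genes, but the 4 chromaffin markers TH, DBH, PNMT and CHGA lay between 7.29 and 7.89, near the median gene, with signals that the bounds did not separate from background.

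**Figure D2:**
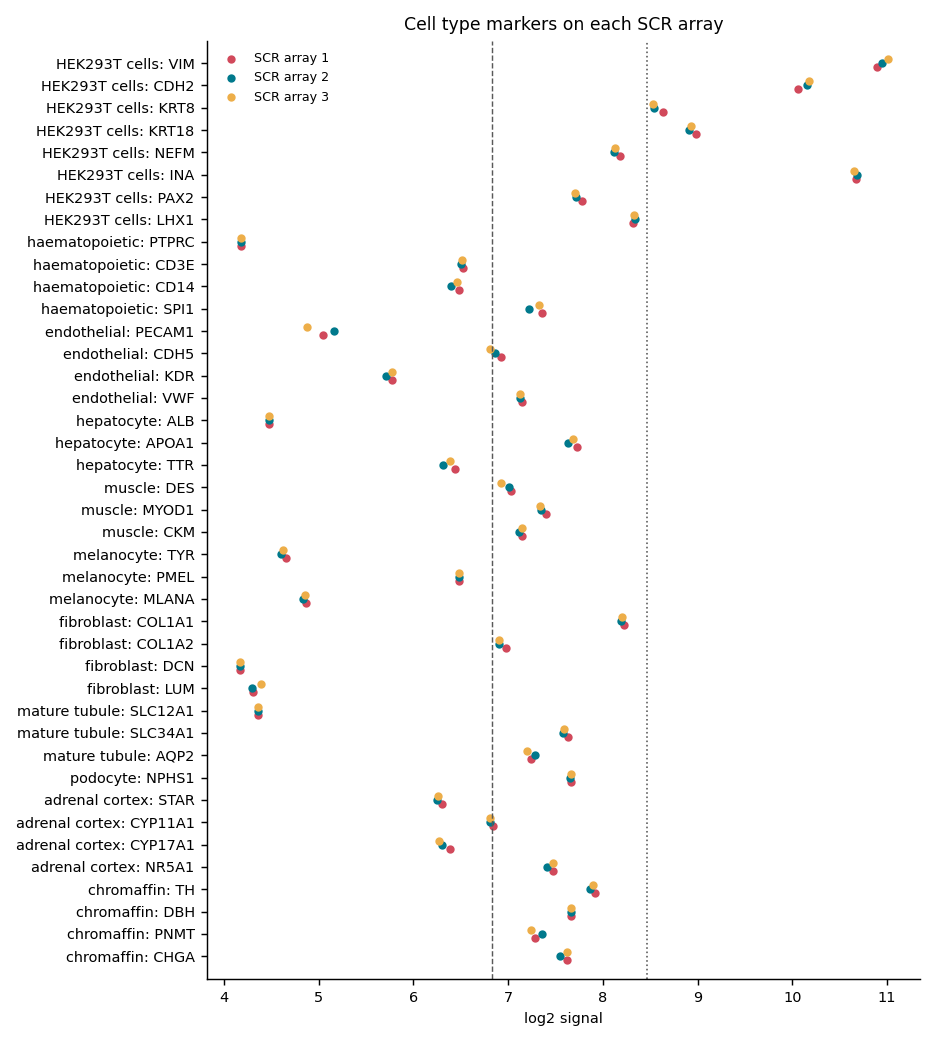
Log2 signal of the cell type markers on each of the 3 SCR arrays (red, array 1; blue-green, array 2; yellow, array 3), with the lower bound (6.83, dashed) and the upper bound (8.47, dotted). Only VIM, CDH2, INA, KRT18 and KRT8, all markers of HEK293T cells, lie to the right of the dotted line, and PTPRC, ALB, TYR, MLANA, DCN, LUM and SLC12A1 are below 5 on every array.

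The HOX genes, which record a cell's position along the body axis and stay on in cultured cells, gave an uneven pattern. HOXB9 was the brightest at 10.39, 10.54 and 10.45, followed by HOXD10 (9.73, 9.72 and 9.67), HOXD11 (9.39, 9.38 and 9.33), HOXD13 (9.36, 9.28 and 9.25), HOXB7 (9.24, 9.30 and 9.30) and HOXC13 (9.27, 9.29 and 9.22). HOXC6 gave 8.98 and HOXB5 gave 8.51, and these 8 genes were the ones above the upper bound among the 25 measured. That share is close to the 31.6% of all genes above it. HOXD13, HOXB7 and HOXC13 did not differ from each other beyond their spread over arrays. Direct neighbours in the genome differed widely, with HOXB8 at 7.85 between HOXB7 and HOXB9, and HOXD12 at 6.96 between HOXD11 and HOXD13. HOXB6 (8.37), HOXB2 (8.23), HOXB13 (7.70), HOXB1 (6.85), HOXC9 (7.54), HOXC10 (7.48), HOXC8 (7.33), HOXC4 (7.01), HOXC12 (6.94), HOXD8 (7.92), HOXD9 (7.89) and HOXD1 (7.39) lay between the bounds, and HOXC5 (6.53) and HOXC11 (6.25) below both. Of the HOXA cluster only HOXA2 had a cluster with its own symbol here, at 7.32.

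**Figure D3:**
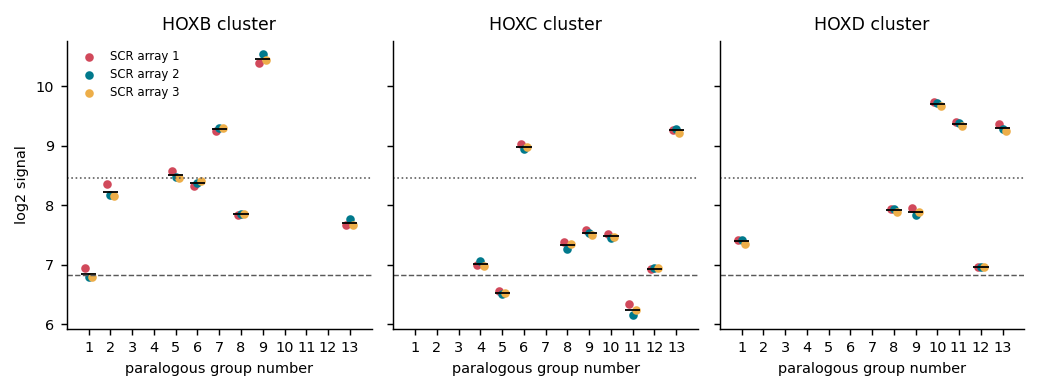
Log2 signal of the HOXB, HOXC and HOXD genes by paralogous group number on the 3 SCR arrays (points) with their mean (bar), beside the bounds at 6.83 (dashed) and 8.47 (dotted). HOXB9 reaches 10.46 and HOXD10 9.71, while HOXB8 and HOXD12, between bright neighbours, lie at 7.85 and 6.96.

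In the GATA family of developmental regulators GATA6 led with 9.67, 9.76 and 9.81, followed by GATA4 (9.04), GATA2 (8.85) and GATA3 (8.76), and GATA5 (8.44) and GATA1 (7.71) lay between the bounds. The SOX family had SOX4 (10.07), SOX17 (9.69) and SOX11 (9.34) at its head and SOX30 at 5.12 at its end. All 9 PAX genes lay between the bounds, from PAX6 at 8.38 through PAX9 (8.06), PAX3 (7.98), PAX7 (7.85), PAX2 (7.73), PAX1 (7.68), PAX8 (7.27) and PAX5 (7.18) to PAX4 at 7.01, so that no member stood out. Oncofetal RNA-binding proteins were bright, with IGF2BP1 at 11.29, 11.36 and 11.41 and IGF2BP3 at 9.96, next to MYC at 10.31, while alpha-fetoprotein (AFP) lay at 3.94.

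The nephron progenitor list had a median of 8.25, with all 17 genes above the lower bound and 7 above the upper one, shares of 100% and 41.2% against 67.6% and 31.6% of all genes. Its highest members were CCND1 (9.93, 9.76 and 9.73), HOXD11 and the adhesion molecule NCAM1 (9.26). The other kidney lists were lower, with medians of 7.33 for ureteric bud and collecting duct, 7.30 for podocytes and 7.18 for tubules, and no tubule gene passed the upper bound. The potassium channel KCNJ1 and the salt transporter SLC12A1, both of the thick ascending limb, gave 4.30 and 4.36. In the podocyte list only CD2AP (9.35) and PODXL (8.92) passed the upper bound, and PTPRO lay at 4.77.

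Adrenal cortex genes had a median of 7.07, and none of 12 passed the upper bound, against 31.6% of all genes. FDX1, an electron carrier of all mitochondria, was the highest at 8.26, and the corticotropin receptor MC2R the lowest at 4.63. The neuronal list was split. INA, the ubiquitin hydrolase UCHL1 (10.31) and the light neurofilament NEFL (9.63, 9.88 and 9.79) were bright, and the other 19 of 22 genes stayed under the upper bound, down to DCX at 5.15 and ELAVL4 at 4.94. Neural progenitor genes were led by ZIC2 (9.98) and the Notch target HES1 (9.69), and ended with ZIC1 (6.25) and FABP7 (4.69). In the epithelial list DSP, which anchors keratins at desmosomes, gave 10.49, 10.67 and 10.71, TJP1 of tight junctions gave 9.83, and the epithelial factor GRHL2 gave 5.92. Among integrins ITGB1 stood first at 10.91 and ITGAV second at 9.48, and ITGB6, of epithelia, was last at 4.14.

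The signalling genes covered most pathways at middle levels. The highest medians belonged to the Wnt (8.84), G protein alpha (8.82), Notch (8.81) and TGF-beta (8.72) lists. Every one of the 11 Notch genes and 19 TGF-beta and BMP genes passed the lower bound, against 67.6% of all genes. NOTCH2 gave 10.06 and the shared mediator SMAD4 gave 9.90. Of the 16 G protein alpha genes, GNA11 (10.55, 10.50 and 10.51), GNA13 (10.06), GNAQ (9.92), GNAI3 (9.80), GNAS (9.20), GNAZ (9.17), GNAL (9.02), GNAI1 (8.85), GNA12 (8.79) and GNAI2 (8.71) passed the upper bound. GNAT1 of rod photoreceptors (7.59), GNAO1 of neurons (7.43) and GNA15 of blood cells (7.16) lay between the bounds, and GNAT2 (6.27), GNA14 (5.99) and the taste gustducin GNAT3 (4.31) below both. The beta subunit GNB1 gave 11.33. ADCY1 (9.14), ADCY3 (9.13) and ADCY9 (8.97) were the brightest adenylyl cyclases, of which ADCY1 and ADCY3 did not differ beyond their spread, and ADCY10 was lowest at 5.03. The receptor kinases GRK2 and GRK6 gave 9.60 and 9.56.

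The 40 aminergic receptors had a median of 6.47 and 16 of them (40%) passed the lower bound, against 67.6% of all genes, with ADRA2C at 9.03 and DRD4 at 8.93 on top. In the list of purinergic, adenosine and lipid receptors ADORA2B, a low-affinity adenosine receptor coupled to cyclic AMP, led with 9.89, 9.87 and 9.90, and P2RY12 of platelets and microglia was last at 3.69. The 46 receptor tyrosine kinases had a median of 7.83, led by the ephrin receptor EPHA7 (10.59, 10.71 and 10.78), the insulin-like growth factor receptor IGF1R (10.65, 10.67 and 10.70) and RYK (10.29), and ROS1 was at 4.27. For calcium, the reticulum pump ATP2A2 gave 11.32 and the plasma membrane pump ATP2B1 gave 10.13, while among the voltage-gated channels CACNA1H was highest at 8.80 and the neuronal SCN1A lowest at 4.18. Glucose uptake genes were led by SLC2A1 at 9.65, and the liver form SLC2A2 lay at 4.70. None of the 10 aquaporins passed the upper bound, against 31.6% of all genes.

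Toll-like receptors and type I interferons were among the lowest lists, whereas cytosolic nucleic acid sensors were not. None of the 9 Toll-like receptors passed the lower bound, against 67.6% of all genes. TLR5 gave 6.19, TLR6 gave 5.79, TLR4 gave 5.69, TLR8 gave 5.12, TLR3 gave 4.82, TLR2 gave 4.67, TLR7 gave 4.63, TLR1 gave 4.41 and TLR10 gave 4.02. In the cytosolic sensing list 13 of 18 genes (72.2%) passed the lower bound and 4 (22.2%) the upper one. The first share was close to the 67.6% of all genes and the second was under their 31.6%. The list's median, 7.08, was below the median gene at 7.70. It was led by EIF2AK2, the kinase that senses double-stranded RNA, at 10.58, 10.65 and 10.65. The RNA deaminase ADAR gave 10.23, 10.33 and 10.32. The DNA sensor CGAS gave 4.34, 4.35 and 4.34 and the RNA sensor IFIH1 gave 4.80, 4.66 and 4.72. Interferon-stimulated genes had a median of 6.67, with 10 of 25 (40%) above the lower bound, against 67.6% of all genes. Of these only IFI6 (9.55, 9.37 and 9.31) passed the upper bound. The 17 type I interferon genes had the lowest median of all lists, 4.06, with IFNB1 the highest at 5.15, and chemokines and interleukins had medians of 6.21 and 5.84.

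Families that serve other tissues still gave scattered higher signals. Of the 392 olfactory receptor genes 20 passed the lower bound, as its definition fixes, and OR7E5P (10.13, 10.17 and 10.24) and OR7G1 (9.83, 9.87 and 9.90) were the highest, the first a pseudogene. TAS2R14 led the taste receptors at 8.97 and MAGEA3 the cancer-testis genes at 8.54. The keratin-associated proteins passed the lower bound in 38 of 87 cases and the late cornified envelope proteins in 11 of 18 (43.7% and 61.1%, against 67.6% of all genes). Both belong to hair and skin. The probe base content of these families was not tested.

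The microRNA hairpins showed how strongly base content moved with signal. Among 849 hairpins with a RefSeq sequence, the group of 170 with the lowest share of G and C (16.3% to 40.2%) had a median signal of 3.53, and the group of 170 with the highest share (60.0% to 86.4%) one of 8.17. In those groups 4.12% and 88.8% passed the lower bound. Across these hairpins the signal correlated with G and C share (Pearson's r = 0.78, Spearman's rho = 0.80), values that describe 1 set of arrays, since hairpins share their hybridization and are not replicates. The brightest hairpin, MIR4466 (13.52, 13.48 and 13.54), has 85.2% G and C. Its mature sequence is shown with the seed, bases 2 to 8, in capitals, because it makes that composition plain.
hsa-miR-4466, chr6:156779710-156779727, minus strand: gGGUGCGGgccggcgggg
Such signal cannot be told apart from background of G- and C-rich probes. The array measures the hairpin and its precursor, not the mature strand.

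Promoter sequence also differed along the order of signals. The 13936 protein-coding genes with a RefSeq promoter (300 bases, 250 before the start and 50 after) were split into 10 equal groups by mean signal. The median ratio of observed to expected CpG rose from 0.22 in the lowest group to 0.35, 0.53 and 0.70 in the next 3 and 0.89 in the highest. The median share of G and C rose from 43.0% to 65.7%. A TATAAA motif 40 to 16 bases before the start was present in 8.32% of the lowest group and 1.79% of the highest, and in 2.51% or fewer of each group from the fifth up. The CCAAT motif, on either strand before the start, showed no such order, with 38.5% in the lowest group to 29.6% in the fifth and 38.1% in the eighth, with the highest group close to the lowest. A pyrimidine start was found in 2.87% of the lowest group and 7.68% of the highest. Some low-signal families carried few CpGs, with a median ratio of 0.12 for the olfactory receptors and also for the type I interferons, against 0.94 for the hnRNPs. Other low lists carried more, with 0.48 for endothelial markers, 0.56 for the Toll-like receptors and 0.59 for the classical cadherins. Genes rich in G and C near their start may have probes of like composition, and how much of this gradient lies in the probes was not tested.

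**Figure D4:**
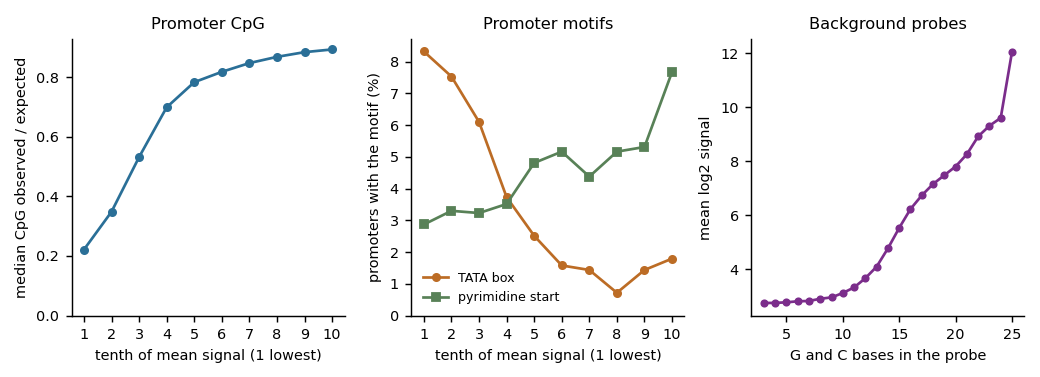
Left, median observed over expected CpG in the promoters of protein-coding genes, in 10 groups of rising mean SCR signal. Middle, percent of the same promoters with a TATA box or a pyrimidine start. Right, mean log2 signal of the 23 classes of background probes by their number of G and C bases. CpG rises from 0.22 to 0.89 and the TATA box falls from 8.32% to 1.79%, while background probes rise from 2.76 to 12.06.

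The 3 arrays were close to each other. The SD over arrays had a median of 0.04 across all genes, and was under 0.1 for 90.6% of them. Pearson's r across genes was 0.9992 between arrays 2 and 3 and 0.9986 and 0.9984 between array 1 and arrays 2 and 3, so array 1 stood slightly apart. Protein-coding genes had a median SD of 0.033, against 0.083 for small nucleolar RNAs and 0.073 for microRNAs. The deposited values were identical on all 3 arrays for 506 genes (2.26%), 336 of them not above the lower bound, PTPRC among them. Such genes have an SD of 0, which says little about their true variation. Among the 15156 genes above the lower bound, 25 had an SD of at least 0.3 and 4 of at least 0.5, namely SLC7A11, ASNS, EGR1 and RNA5SP243, a copy of the 5S ribosomal RNA gene.

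Among the genes with the largest SD were SLC7A11 and ASNS of the amino acid response. The cell induces such genes through the transcription factor ATF4 when amino acids run short or when protein folding or redox balance is disturbed, and the amino acid response genes encode amino acid transporters, synthetic enzymes and regulators. SLC7A11, the cystine importer, gave 7.38 on array 1 but 9.40 and 9.48 on arrays 2 and 3, a signal 4.17-fold lower on array 1 than the mean of the others. ASNS, asparagine synthetase, gave 8.76, 9.90 and 9.85, 2.17-fold lower. PSAT1 of serine synthesis gave 10.76, 11.49 and 11.50, 1.67-fold lower. In each of these genes arrays 2 and 3 were nearly equal and array 1 lay alone. MTHFD2 of the mitochondrial folate cycle gave 9.67, 10.20 and 10.16.

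Over the list, 27 of 30 genes (90%) were lowest on array 1, against 28% of all genes. The list had been chosen with these values known, so the count describes it and supports nothing further. The exceptions were FGF21, TRIB3 and NUPR1. Array 1 was lower than the mean of the others by at least 0.3 in 10 of the 30, against 0.396% of genes above the lower bound. The list's median difference was -0.18, whereas arrays 2 and 3 never differed by more than 0.12 in it. ATF4 itself gave 10.57, 10.75 and 10.78.

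Among the 20 genes of the cytosolic tRNA synthetase list, named here after their values were seen, 14 (70%) were lowest on array 1, led by YARS1 (9.30, 9.86 and 9.83), CARS1 (8.42, 8.81 and 8.84) and GARS1 (10.72, 11.09 and 11.09). The remaining 6, FARSA, FARSB, HARS1, KARS1, RARS1 and AIMP1, were level or slightly higher there, with HARS1 at 9.47 on every array. The 11 synthetases listed as ATF4 targets are part of these 14 and were all lowest on array 1, where 28% of all genes were lowest. CARS1, QARS1 and VARS1, which are not among the 11, were lowest there too. Both lists were chosen with earlier results of these data known, so the counts describe them and support nothing further. Nothing in the labels tells array 1 from the others, and what set it apart was not tested.

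**Figure D5:**
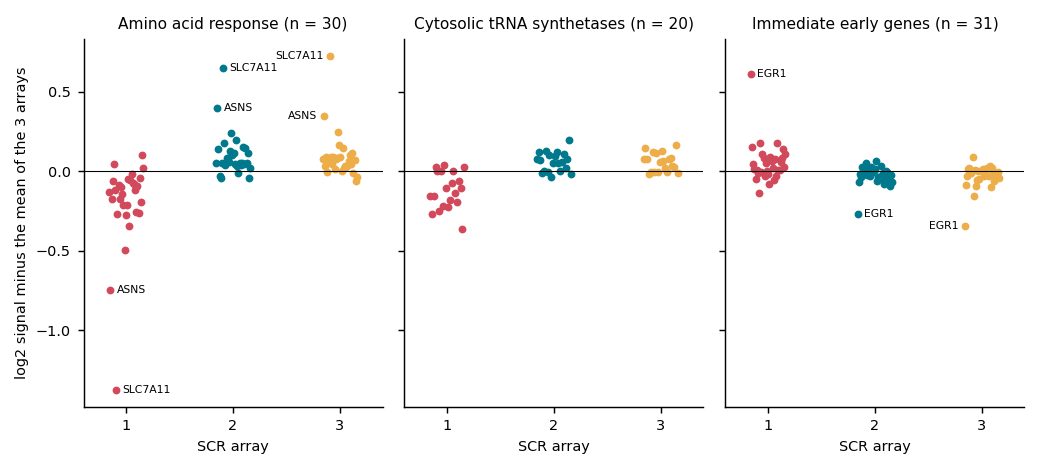
Deviation of each gene from its own mean over the 3 SCR arrays (log2), for the amino acid response list, the cytosolic tRNA synthetases and the immediate early genes, 1 point a gene on each array, spread sideways for sight only, with genes of SD 0.5 or more named. On array 1, the lowest for 27 of the 30 amino acid response genes, SLC7A11 gave 7.38 against 9.40 and 9.48, and EGR1 lies above 0 there.

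ATF4 with a C/EBP partner binds a composite element whose core is TGATGNAA. Stretches of the ASNS promoter and of 3 synthetase promoters are shown, out of those that hold this core in either orientation, printed in the direction of the gene with the core in capitals. Where it lies on the opposite strand it reads TTGCATCA.
ASNS, chr7:97872455-97872490, minus strand: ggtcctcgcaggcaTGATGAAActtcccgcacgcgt
AARS1, chr16:70289672-70289707, minus strand: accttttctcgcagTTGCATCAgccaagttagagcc
CARS1, chr11:3057404-3057439, minus strand: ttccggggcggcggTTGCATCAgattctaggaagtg
TARS1, chr5:33440953-33440988, plus strand: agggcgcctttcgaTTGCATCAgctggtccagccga
The core, on either strand, was found in 6 of 17 tRNA synthetase promoters (35.3%) and 6 of 26 amino acid response promoters (23.1%), against 2.67% of the 15374 promoters of measured genes. In ASNS it starts 68 bases before the transcription start, and in CARS1 and TARS1 within 3 bases of it. The share of promoters with the core fell from 7.32% in the lowest of the 10 groups to 1.08% in the seventh and was 1.79% in the highest, and it reached 35.7% (5 of 14) in the type I interferons, which are related in sequence and rich in A and T. A match is a description of the sequence and not a site of binding.

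Array 1 was higher than the mean of the others by at least 0.3 in 46 genes above the lower bound. EGR1, an immediate early transcription factor that serum and stress induce within minutes, gave 10.79, 9.90 and 9.83. Of the 31 immediate early genes 19 (61.3%) were highest on array 1, against 49.2% of all genes, and EGR1 stood alone in the list with an SD over 0.5. The metallothioneins MT2A (10.02, 9.59 and 9.60) and MT1F (7.60, 7.13 and 7.14), which bind zinc, and the antiviral membrane protein IFITM2 (10.52, 10.15 and 10.04) were also highest there. So were ECH1 of fatty acid oxidation (11.48, 11.04 and 11.05) and the class II antigen gene HLA-DRB1 (9.16, 8.75 and 8.75). The HLA-DRB1 signal came from a cluster on an alternate haplotype, as that of SLC44A4 did. Of the other class II genes, HLA-DRA (5.76), HLA-DQA1 (5.67) and HLA-DQA2 (6.26) lay below the lower bound. HLA-DPA1 (8.473) lay just above the upper bound. HLA-DPB1 (8.36), HLA-DRB5 (7.83), HLA-DQB2 (7.36), HLA-DRB4 (7.28) and HLA-DQB1 (7.14) lay between the bounds. Whether the HLA-DRB1 signal is class II expression was not tested. For 18 of 25 interferon-stimulated genes (72%) array 1 was the highest, but 15 of the 25 did not pass the lower bound. The list's median deviation on array 1 from the mean of the 3 arrays was small, 0.026, against 0.011 for all genes. The background probes moved the same way, since all 12 classes with 13 to 24 G and C bases were highest on array 1, by 0.04 to 0.10, and their part in these counts was not tested.

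The paired hairpins MIR221 and MIR222, named after their values were seen, lie less than a kilobase apart on the X chromosome. Both were highest on array 1, as were 56.3% of the 962 microRNA hairpins. MIR221 gave 9.03, 8.42 and 8.37, and MIR222, with a mean of 7.01 between the bounds, gave 7.55, 6.85 and 6.64. Their mature strands are printed because they share the seed, bases 2 to 8, in capitals.
hsa-miR-221-3p, chrX:45746180-45746202, minus strand: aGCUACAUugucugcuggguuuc
hsa-miR-222-3p, chrX:45747036-45747056, minus strand: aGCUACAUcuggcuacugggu

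Array 3 differed in small nucleolar RNAs and in genes with RNU or RNVU symbols, but not in small RNAs of every kind. Of the 259 small nucleolar RNAs, which guide modification of ribosomal RNA, 148 (57.1%) were highest on array 3, against 22.5% of all genes. SNORA23 gave 10.44, 10.61 and 11.33, and SNORD63 gave 7.93, 7.65 and 8.56. RNA5SP243 gave 10.79, 10.94 and 11.73, although its family of 488 genes was split, with 42.6% highest on array 3 and 39.8% on array 1. Of the 962 microRNA hairpins 23% were highest on array 3 and 56.3% on array 1. A family of 215 genes with RNU or RNVU symbols was taken up after its values were seen, and 148 of them (68.8%) were highest on array 3. It holds spliceosomal RNA genes and their copies, but also many copies of U7 (RNU7), which is not a spliceosomal RNA, and RNU105B and RNU105C. The spliceosomal RNAs were not counted apart. Array 3 was higher than the mean of the others by at least 0.3 in 60 genes above the lower bound, and 4 of those were protein-coding. Array 1 was lower by as much in 60 genes, of which 34 were protein-coding. The counts overlap. SLC7A11, PSAT1 and USP17L21, protein-coding genes in both, were close on arrays 2 and 3 and low on array 1. RNA5SP243 and SNORA23, also in both, were highest on array 3. Copies of these small RNA genes are near-identical, so probes may be shared and the genes do not count as separate observations.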

How the data were processed

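RNA of HEK293T cells was measured on Affymetrix Human Transcriptome Array 2.0 chips. The authors summarised and normalized the scans with RMA in Affymetrix Expression Console and deposited log2 signals. Not given in the sources used here: software versions and the genome build behind the probe design. The method equalises the distribution of signal between arrays, so a shift common to all genes is removed. The 12 deposited samples are 6 arrays, each in a gene-level and a probe-set table, and the 3 SCR arrays of the gene-level table were described. The other line's arrays were left out. Array data have no read depth, and their number, 3, limits the precision.

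Clusters were named through the platform annotation, with 306 symbols updated from RefSeq. The 1543 clusters with several symbols and 42204 unnamed here were left out. A gene was taken from its brightest cluster, and 188 of 528 genes with several clusters had clusters over 1 log2 unit apart. Values are means and SDs over arrays, and no test was made. The members and the 94 gene lists (93 with measured members) were chosen with earlier results of these data known. Genes named are the 20 brightest, up to 3 highest and 2 lowest of each list, all members of the small families described one by one, the 20 of largest SD above the lower bound, the fixed markers, and others said to be chosen after their values were seen. Symbols for small RNAs, pseudogenes, clones and antisense transcripts were left out of the 20 brightest and of the 20 of largest SD, except where a small RNA is named after its values were seen. Promoter and microRNA sequences came from RefSeq (GRCh38.p14). Alternatives changed the bound, the cluster rule, the SD threshold, the table and the arrays used. The scripts were tested on simulated data. Python 3.11.15, pandas 2.3.3, numpy 2.4.6, statsmodels 0.14.6 and matplotlib 3.10.9 were used. Some promoter sequences are not reported here.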

Additional observations from a re-analysis of the deposited data

How the results depend on the processing

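The number of genes above the lower bound was 15156. It was 7084 with the upper bound, and between 11968 (99th percentile of olfactory receptors) and 19907 (a fixed bound of 5) with the other bounds, one of which, 12306 from background probes with 19 G and C bases, was chosen after seeing the data. Leaving out 1 array gave 15049 to 15224. The number of genes with an SD of at least 0.5 was 4. It was 25 at an SD of at least 0.3, 1 at an SD of at least 1 and 7 with no filter on low signal. Leaving out 1 array gave 4 to 9, the 9 without array 2. Without array 1 only 1 of the 4 was shared with the full set, so SLC7A11, ASNS and EGR1 owe their SD to that array. Of the amino acid response genes, 27 of 30 were lowest on array 1, and 27 to 28 under the alternatives, which were chosen after seeing the data. With exon probe sets it was 28, against 30.7% of all genes, and with a loess curve removed 27, against 40.7%. List medians moved by under 0.1 in 91 of 93 lists with the mean of clusters (hnRNPs by -0.40) and in 38 of 93 with exon probe sets, where the chaperonin list moved by -0.62 and the Toll-like receptors by 0.34. Without array 1, 91 of 93 stayed within 0.1. No paired analysis was possible because only 1 group is described. Signal near the bounds cannot be told apart from probe background.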
